A study of Rattus norvegicus with 20 samples.

Results

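The promoters described here belong to 6 genes of the tumour necrosis factor (TNF) system: the ligands Tnf, Lta and Ltb, the receptors Tnfrsf1a and Tnfrsf14, and the kinase Ripk1. They were taken by gene name, with earlier results of these data known. Each was read from the peaks that the authors' lists assign to the gene and from the array probes within 5 kb of its start, on all 20 arrays. Lta and Tnf lie in 1 tiled region, so the 6 genes gave 5 promoter measurements of 14540 tiled promoters, over 240 probes, and 6 of the 14368 genes named in the peak lists. The study measured p65 (Rela), a DNA-binding subunit of the transcription factor NF-kB, by chromatin immunoprecipitation on promoter tiling arrays of rat liver, with a rabbit polyclonal antibody.

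All groups were wild-type male Sprague Dawley rats aged 8 to 10 weeks. For 5 weeks the ethanol groups drew 36% of their calories from ethanol in a liquid diet, and the carbohydrate groups were pair-fed a diet in which carbohydrate took its place. Livers were sampled at the 70% partial hepatectomy itself (0 h, the resected left lateral and median lobes) and 1 h and 6 h later (the remnant lobes), so the time points also differ in the lobe sampled. There were 3 arrays for each diet at 0 h, 3 for each diet at 1 h and 4 for each diet at 6 h. The liver is a mixture of cell types, and a promoter signal from whole tissue does not separate fewer cells with p65 bound from less p65 per cell.

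TNF and the lymphotoxins are related cytokines. TNF and soluble lymphotoxin alpha bind TNF receptor 1, encoded by Tnfrsf1a, which assembles a complex with the kinase RIPK1 and passes a signal to NF-kB. Lymphotoxin beta anchors lymphotoxin alpha at the cell surface, and the herpesvirus entry mediator, encoded by Tnfrsf14, binds LIGHT and lymphotoxin alpha. In liver, TNF made by Kupffer cells primes hepatocytes for the cell cycle after hepatectomy, and NF-kB is both downstream of TNF and an activator of Tnf transcription.

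Identifiers in the array names take 4 forms, read here as 4 array runs, although no label states what they mean. The runs only partly cross the groups, and this touches every result on time. By this reading, 5 of the 6 arrays of 0 h lie in the first run. The second run is 1 slide with 3 arrays, ethanol 1 h replicate 1, ethanol 0 h replicate 2 and carbohydrate 1 h replicate 1. The third run holds 11 arrays, all of 1 h or 6 h, and the fourth holds carbohydrate 6 h replicate 1. Read in the same way, the identifiers give 16 animals, of which 4 gave 2 arrays each, and 11 slides. Ethanol 0 h replicate 2 stood apart from the other arrays of 0 h at 3 of the 5 promoters and lay near the other arrays of its slide. At Tnfrsf1a it read 1.44, against 1.09 on ethanol 1 h replicate 1 and 1.28 on carbohydrate 1 h replicate 1 of the same slide, while the other 5 arrays of 0 h read from -0.21 to 0.25. The part of this array and of the run in the time differences was not tested beyond the fits given below. Fits without ethanol 0 h replicate 2 leave only ethanol arrays of the first run at 0 h. As that run holds no array of 1 h, they cannot tell time from run at 1 h against 0 h. No 2 arrays held identical columns, and the highest correlation between 2 arrays over all promoters was 0.82.

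Promoter sequences are shown for the 3 ligand genes, because they lie side by side on chromosome 20 and a letter match to the NF-kB consensus falls near the start of some of them and not of others. Each runs from 250 bases before to 50 bases after the RefSeq start in the GRCr8 build, 5′ to 3′ on the gene's own strand, and capitals mark matches to the consensus on either strand. The Tnf promoter is chr20:3626435-3626734 on the plus strand, that of Lta chr20:3623277-3623576 on the plus strand and that of Ltb chr20:3634005-3634304 on the minus strand.
Tnf: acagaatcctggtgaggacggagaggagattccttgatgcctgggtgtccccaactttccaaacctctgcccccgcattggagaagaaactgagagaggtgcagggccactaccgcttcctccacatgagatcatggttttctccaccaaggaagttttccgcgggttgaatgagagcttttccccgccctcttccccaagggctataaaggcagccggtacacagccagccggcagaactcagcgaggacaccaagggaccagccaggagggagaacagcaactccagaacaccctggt
Lta: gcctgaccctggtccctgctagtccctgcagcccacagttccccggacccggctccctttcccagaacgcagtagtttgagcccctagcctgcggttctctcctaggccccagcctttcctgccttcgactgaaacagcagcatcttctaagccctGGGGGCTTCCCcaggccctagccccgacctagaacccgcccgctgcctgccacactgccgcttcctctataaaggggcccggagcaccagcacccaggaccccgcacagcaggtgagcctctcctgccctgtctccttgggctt
Ltb: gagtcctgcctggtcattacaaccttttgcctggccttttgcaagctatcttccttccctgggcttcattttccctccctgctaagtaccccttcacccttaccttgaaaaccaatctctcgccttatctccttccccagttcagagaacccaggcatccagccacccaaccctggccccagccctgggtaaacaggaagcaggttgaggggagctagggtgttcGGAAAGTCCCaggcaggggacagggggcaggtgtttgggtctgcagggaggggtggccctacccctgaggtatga
The Lta promoter held 3 overlapping matches, 2 on the gene's strand and 1 on the other, that together cover the bases from -94 to -84. The Ltb promoter held 1 match, GGGACTTTCC on the opposite strand, from -25 to -16. Neither the Tnf promoter nor those of Tnfrsf1a and Ripk1 held a match in these 300 bases, and Tnfrsf14 is named only. Of all 33469 RefSeq promoters of this length, 7.51% held at least 1 match. The Tnf start lies 3158 bp downstream of the Lta start both in the array files and in GRCr8. The build of the array files is not given in the sources used here, so their coordinates are printed below as the files give them.

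Promoter signal is given as a log2 ratio with the deposited sign turned, so that deposited peaks lie at high values, and with each array's median set to 0. Each tiled promoter was scored by the average of its strongest 500 bp stretch, the window chosen once over all 20 arrays together. At the Tnf and Lta region this window has 5 probes, lies on chromosome 20 from 3660633 to 3661019, and spans -366 to +20 of the Tnf start, so it is called the Tnf promoter below. From the Lta start it lies 2792 to 3178 bp downstream. The Ltb window has 5 probes on chromosome 20 from 3668447 to 3668897, at -528 to -78. The Tnfrsf1a window has 4 probes on chromosome 4 from 162173258 to 162173578 and lies past the start, at +696 to +1016, where the tiling ends. The Tnfrsf14 window has 6 probes on chromosome 5 from 171737191 to 171737671 and is the most distant from its start, at -2331 to -1851. The Ripk1 window has 5 probes on chromosome 17 from 37216877 to 37217342, at -809 to -344.

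In carbohydrate-fed rats, p65 signal at the Tnf start, Tnfrsf1a and Tnfrsf14 was higher on the arrays of 1 h than of 0 h. It was lower again at 6 h, while Ripk1 was lower at 1 h than at 0 h. The 1 h and 0 h arrays of this diet share no array run. With array run as a term, 0 members were called between them. Ltb at 1 h and 0 h averaged 0.49 and 0.02 with carbohydrate, a difference that missed the threshold, and it fell between 1 h and 6 h in both diets. In ethanol-fed rats, Ltb and Tnfrsf1a fell between 1 h and 6 h, and no member promoter passed the test between 1 h and 0 h. No member promoter differed between the diets at any time after adjustment. At 1 h, Tnfrsf14 and Tnf each read lower on every ethanol array than on every carbohydrate array. With so few arrays such a split also arises by chance, and its share over all promoters is not given here. Tests are limma fits of the 6 groups over all 14540 promoters, with Benjamini-Hochberg adjusted p-values called under 0.05.

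**Figure D1:**
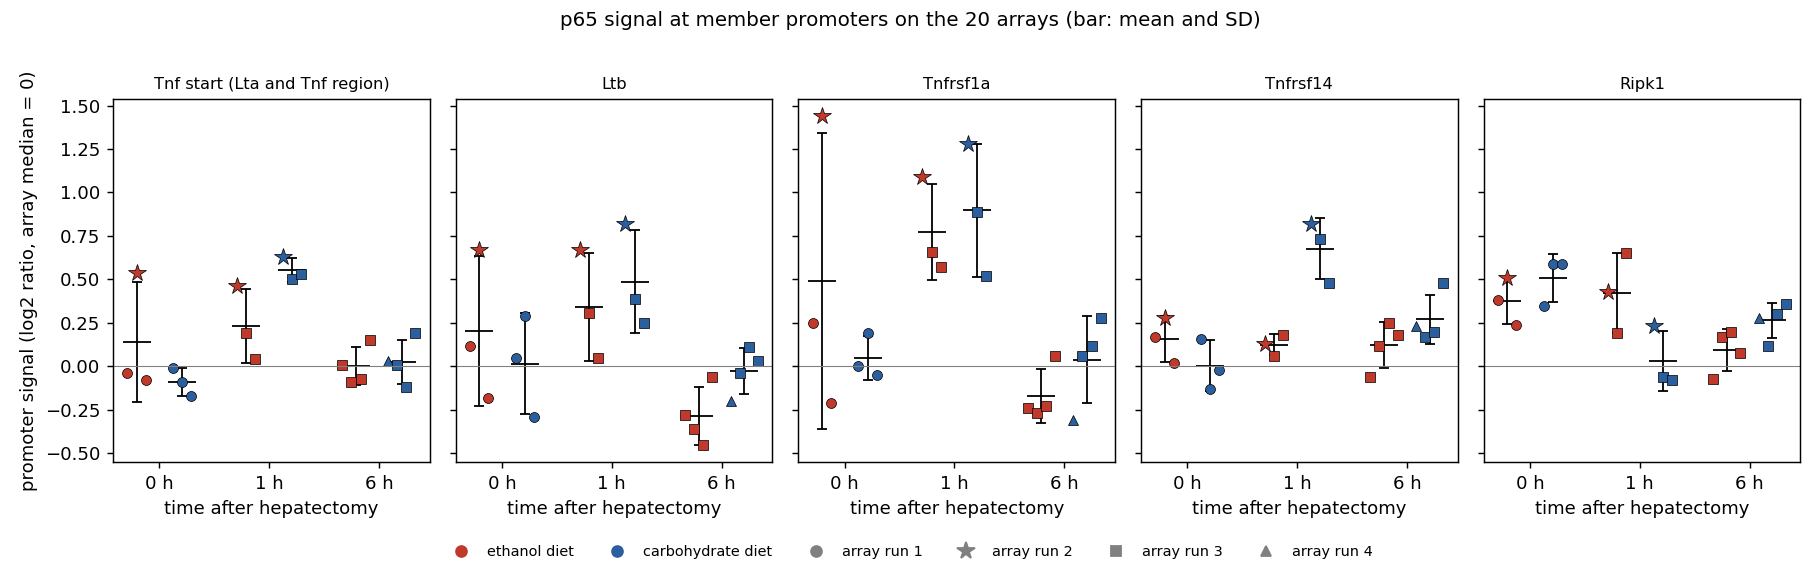
Promoter signal (log2 ratio, array median at 0) of the 5 member promoters on each of the 20 arrays, by time after hepatectomy, with ethanol in red left of carbohydrate in blue; marker shapes give the array run, and bars the group mean and SD. At Tnfrsf14 the 3 carbohydrate arrays of 1 h lie between 0.48 and 0.82 and the 3 ethanol arrays of 1 h between 0.06 and 0.18; the stars of the second array run lie high at Tnfrsf1a, also at 0 h.

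The Tnf promoter read 0.63, 0.50 and 0.53 on the carbohydrate arrays of 1 h, against -0.01, -0.09 and -0.17 on those of 0 h. Every array of 1 h lay above every array of 0 h, and the difference was 0.64 ± 0.14 (SE, adjusted p = 0.00666). At 6 h the carbohydrate arrays read 0.03, 0.01, -0.12 and 0.19, which is below all 3 arrays of 1 h, by -0.52 ± 0.13 (SE, adjusted p = 0.00454). Among the averages of all tiled promoters, that of Tnf had percentiles of 5.02 (0 h), 92.9 (1 h) and 8.42 (6 h) in the carbohydrate groups. The ethanol arrays read -0.04, 0.54 and -0.08 at 0 h, 0.46, 0.19 and 0.04 at 1 h, and 0.01, -0.09, -0.07 and 0.15 at 6 h. The high value at 0 h is the array of the second run, and the 3 times overlapped. The ethanol differences were 0.09 ± 0.14 between 1 h and 0 h (SE, adjusted p = 0.778; 0.29 without ethanol 0 h replicate 2, adjusted p = 0.151 by limma) and -0.23 ± 0.13 between 6 h and 1 h (SE, adjusted p = 0.174). At 1 h the ethanol arrays of Tnf all lay below the carbohydrate arrays, by -0.32 ± 0.14, which was not called (SE, adjusted p = 0.541). On the 3 slides that carry a 1 h array of each diet, ethanol minus carbohydrate was -0.17, -0.30 and -0.48.

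Lta could be read apart from Tnf only in bins of 500 bp. The bin centred at -591 bp from the Lta start, which is -3749 bp from that of Tnf, read 0.48, 0.28 and 0.28 on the carbohydrate arrays of 1 h, against -0.23, -0.28 and -0.32 on those of 0 h. The groups did not overlap, and the difference was 0.62 ± 0.16 (SE, adjusted p = 0.0241 over all 135502 bins). In ethanol-fed rats the same bin read -0.27, -0.31, -0.29 and -0.08 at 6 h, against 0.55, 0.39 and 0.07 at 1 h, a difference of -0.57 ± 0.15 (SE, adjusted p = 0.0153). The ethanol arrays of 0 h read 0.00, 0.61 and -0.34 there. The 0.61 is the array of the second run, and it lies above every carbohydrate array of 1 h. Differences of single bins with array run as a term are not given here. The next bin, centred at -91 bp from the Lta start and holding its consensus matches if the start is the same in both builds, averaged 0.22 ± 0.22 at 1 h and -0.08 ± 0.10 at 0 h in carbohydrate-fed rats (SD, n = 3 each) and was not called in any comparison. Between the Lta and Tnf starts, a bin centred at -749 bp from Tnf had the largest called difference of the region. It averaged -0.57 ± 0.13 at 6 h (SD, n = 4), against 0.68 ± 0.26 at 1 h (SD, n = 3), on the carbohydrate diet, and fell by 1.25 between them (adjusted p = 0.0031 by limma). In this bin too, ethanol 0 h replicate 2 read 1.08, above the carbohydrate arrays of 1 h (0.98, 0.55 and 0.50).

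Ltb, which encodes the membrane anchor of the lymphotoxin heterotrimer, read 0.82, 0.39 and 0.25 on the carbohydrate arrays of 1 h, against 0.05, 0.29 and -0.29 on those of 0 h. These groups overlapped, and the difference of 0.47 ± 0.18 missed the threshold (SE, adjusted p = 0.0791). At 6 h the carbohydrate arrays read -0.20, -0.04, 0.11 and 0.03, all below 1 h, by -0.51 ± 0.17 (SE, adjusted p = 0.0247). On the ethanol arrays Ltb read 0.12, 0.67 and -0.18 at 0 h, 0.67, 0.31 and 0.05 at 1 h, and -0.28, -0.36, -0.45 and -0.06 at 6 h. All 4 ethanol arrays of 6 h lay below all 3 of 1 h, and the difference was -0.63 ± 0.17 (SE, adjusted p = 0.00777). The ethanol difference between 1 h and 0 h was 0.14 ± 0.18 (SE, adjusted p = 0.716), and 0.38 without ethanol 0 h replicate 2 (adjusted p = 0.172 by limma). Between the diets at 1 h, ethanol minus carbohydrate was -0.15, -0.07 and -0.20 on the 3 shared slides, with a fitted difference of -0.14 ± 0.18 (SE, adjusted p = 0.853). The ethanol average at 6 h, -0.29, was at percentile 0.172 of all promoters. In bins, the fall between 1 h and 6 h was called on both sides of the Ltb start in both diets. The bin centred 619 bp inside the gene had differences of -0.69 ± 0.15 with ethanol (SE, adjusted p = 0.00611) and -0.64 ± 0.15 with carbohydrate (SE, adjusted p = 0.00899). The carbohydrate call at the promoter was lost without carbohydrate 1 h replicate 1 (adjusted p = 0.194 by limma) and without carbohydrate 6 h replicate 1 (0.0692 by limma), and the ethanol call without ethanol 1 h replicate 1 (0.0551 by limma). Array run as a term, arrays scaled to the same spread, leaving out the second array run and the third run alone also lost the carbohydrate call.

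Tnfrsf1a, the receptor through which soluble TNF signals to NF-kB and to cell death, had the highest single values of the members. It read 1.28, 0.89 and 0.52 on the carbohydrate arrays of 1 h, against 0.00, 0.19 and -0.05 on those of 0 h, a difference of 0.85 ± 0.24 (SE, adjusted p = 0.027). With array run as a term this difference changed sign and was not called. At 6 h the carbohydrate arrays read -0.31, 0.06, 0.12 and 0.28, again below every array of 1 h, by -0.86 ± 0.23 (SE, adjusted p = 0.00801). The ethanol arrays read 0.25, 1.44 and -0.21 at 0 h, 1.09, 0.66 and 0.57 at 1 h, and -0.24, -0.27, -0.23 and 0.06 at 6 h. The ethanol arrays of 6 h lay below all those of 1 h, by -0.94 ± 0.23 (SE, adjusted p = 0.0049). The ethanol difference between 1 h and 0 h was 0.28 ± 0.24 (SE, adjusted p = 0.593), and without ethanol 0 h replicate 2 it was 0.75 (adjusted p = 0.0135 by limma). Without that array the ethanol arrays of 0 h and 1 h share no run, so the second fit cannot tell time from run. Within the second run, ethanol 1 h replicate 1 minus ethanol 0 h replicate 2 was -0.35. On the carbohydrate diet the call at 1 h was lost when any 1 array of those groups other than carbohydrate 1 h replicate 3 was left out, with differences from 0.66 to 0.92 (adjusted p from 0.0549 to 0.117 by limma). The call at 6 h was lost without carbohydrate 1 h replicate 1, at -0.67 (adjusted p = 0.0683 by limma).

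Tnfrsf14, the receptor for LIGHT, had the largest difference between the diets at 1 h among the 5 promoters. It read 0.13, 0.06 and 0.18 on the ethanol arrays, against 0.82, 0.73 and 0.48 on the carbohydrate arrays. The groups did not overlap and differed by -0.55 ± 0.13 (SE, unadjusted p = 0.000141 by limma), but the difference was not called over all promoters (adjusted p = 0.211). On the 3 slides that carry both diets at 1 h, the ethanol array was the lower on all 3, by -0.69, -0.66 and -0.30. With array run as a term the adjusted p was 0.037, without ethanol 1 h replicate 1 it was 0.0458, and with slide as a fixed term it was 0.23, all by limma. On the carbohydrate diet Tnfrsf14 rose at 1 h, against 0.16, -0.13 and -0.02 at 0 h, by 0.67 ± 0.13 (SE, adjusted p = 0.00419). At 6 h it read 0.23, 0.17, 0.20 and 0.48, lower than at 1 h by -0.40 ± 0.12 (SE, adjusted p = 0.0143), a call lost without carbohydrate 1 h replicate 1 (adjusted p = 0.0834 by limma). The carbohydrate arrays of 6 h all lay above those of 0 h, with a difference of 0.27 ± 0.12 that missed the threshold (SE, adjusted p = 0.101). On the ethanol diet the arrays read 0.17, 0.28 and 0.02 at 0 h and -0.06, 0.12, 0.25 and 0.18 at 6 h, and differences between the times were at most 0.03 in size. The change between 1 h and 0 h differed between the diets by -0.70 ± 0.18 (SE, adjusted p = 0.422). The signal sat upstream: the bins centred at -1910 and -2410 bp were called higher at 1 h than at 0 h on the carbohydrate diet, by 0.63 ± 0.12 and 0.47 ± 0.11 (SE, adjusted p = 0.011 and 0.0161).

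Ripk1, the kinase recruited to the TNF receptor complex, was the member that ran the other way on the carbohydrate diet. It read 0.23, -0.06 and -0.08 on the carbohydrate arrays of 1 h, against 0.35, 0.59 and 0.59 on those of 0 h. The 2 groups did not overlap, and the difference was -0.48 ± 0.14 (SE, adjusted p = 0.0254). The call was lost without either of carbohydrate 0 h replicates 2 and 3, or of carbohydrate 1 h replicates 2 and 3 (adjusted p from 0.0671 to 0.103 by limma). At 6 h the carbohydrate arrays read 0.28, 0.12, 0.30 and 0.36, with a difference from 1 h of 0.23 ± 0.13 (SE, adjusted p = 0.18). On the ethanol arrays Ripk1 read 0.38, 0.51 and 0.24 at 0 h, 0.43, 0.19 and 0.65 at 1 h, and -0.07, 0.17, 0.20 and 0.08 at 6 h. The ethanol difference between 6 h and 1 h, -0.33 ± 0.13, missed the threshold (SE, adjusted p = 0.0575). That between 1 h and 0 h was 0.05 ± 0.14 (SE). Both ethanol differences had the same sign as at Tnf, Ltb and Tnfrsf1a. The change between 6 h and 1 h differed between the diets by -0.56 ± 0.18 (SE, adjusted p = 0.23). Within the third array run alone that difference was -0.65 (adjusted p = 0.0184 by limma), and without the second run it was -0.66 (adjusted p = 0.0399 by limma).

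**Figure D2:**
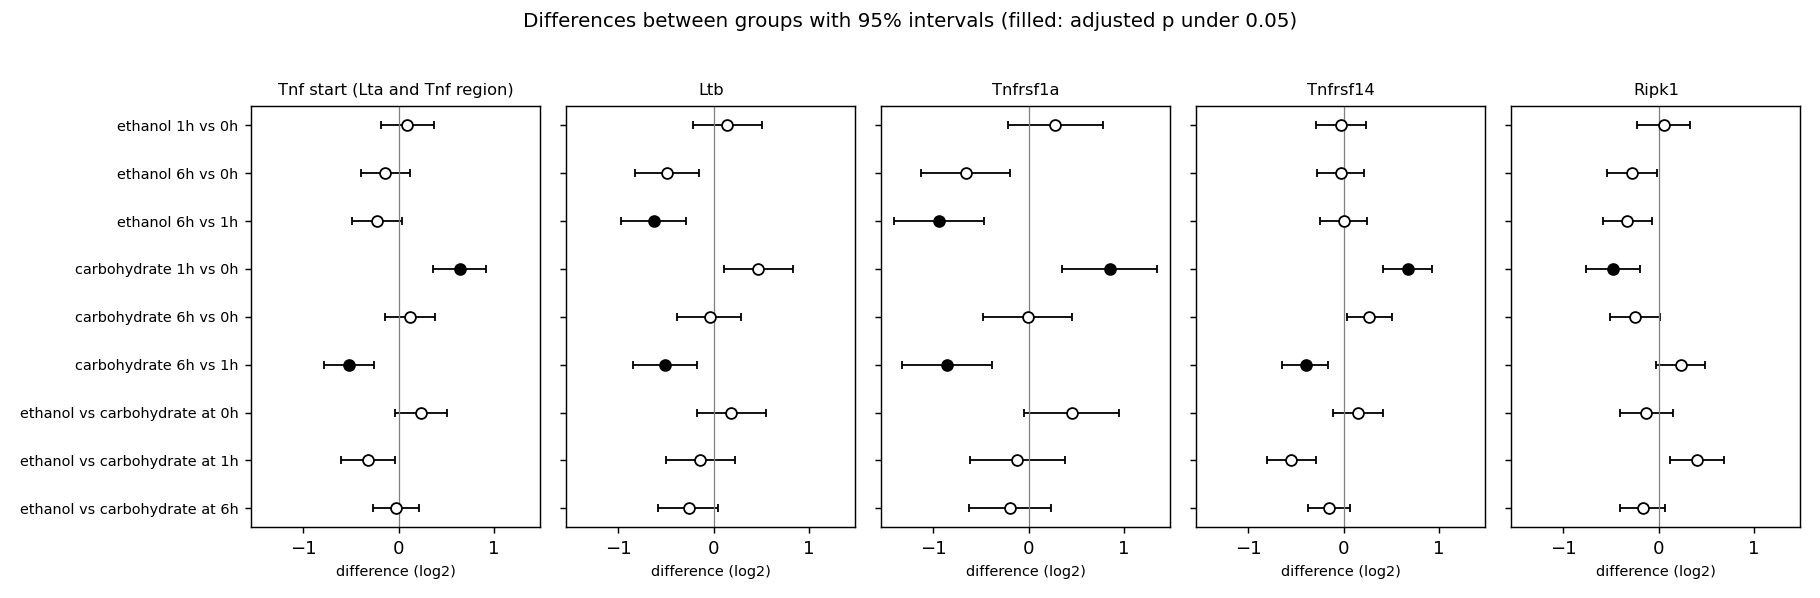
Differences in promoter signal (log2) of the 5 member promoters in the 9 comparisons of 2 groups, with 95% intervals from limma; filled points have an adjusted p under 0.05. The filled points lie at 1 h against 0 h with carbohydrate, and at 6 h against 1 h with both diets; Ripk1 is the one filled point below 0 at 1 h against 0 h.

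Against the background of all promoters, 3 of the 5 member promoters rose and 1 fell on the carbohydrate diet at 1 h against 0 h, where 8.64% of promoters were called higher and 2.46% lower. With array run as a term, 0 of the 14540 promoters were called higher and 5 lower in this comparison. At 6 h against 1 h with carbohydrate, 4 of 5 were lower and 0 higher, where 6.91% of promoters were called lower and 17.1% higher. At 6 h against 1 h with ethanol, 2 of 5 were lower and 0 higher, where 16.1% of promoters were called lower and 7.73% higher. No member was called at 6 h against 0 h with carbohydrate, where 20.6% of all promoters were, nor with ethanol at 1 h against 0 h (0.275%) or 6 h against 0 h (0.997%). The 3 comparisons between diets and the 3 differences between diets in a change called 0 members and 0% of promoters by limma, with 1106 to 2044 of the 14540 promoters at an unadjusted p under 0.05. The comparisons within a diet share arrays and are not independent of each other. The median difference of all promoters was between -0.17 and 0.15 in these 12 comparisons.

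The 1 h and 0 h arrays of the carbohydrate diet share no run, so time and run cannot be told apart there without the arrays of the second run, which link them. With array run as a term, the carbohydrate differences between 1 h and 0 h were 0.19 at Tnf (the window of the Lta and Tnf region), -0.22 at Tnfrsf1a, 0.56 at Tnfrsf14 and -0.58 at Ripk1, none of them called (adjusted p from 0.799 to 0.987 by limma). Only 1 comparison of 1 h with 0 h on the same diet lies within a run, and it is a pair of ethanol arrays of 1 animal on 1 slide. Ethanol 1 h replicate 1 minus ethanol 0 h replicate 2 was -0.08 at Tnf, 0.01 at Ltb, -0.35 at Tnfrsf1a, -0.15 at Tnfrsf14 and -0.08 at Ripk1. Across diets on that slide, carbohydrate 1 h replicate 1 minus ethanol 0 h replicate 2 was 0.09 at Tnf, 0.16 at Ltb, -0.16 at Tnfrsf1a, 0.54 at Tnfrsf14 and -0.28 at Ripk1. Without the 3 arrays of that run, the 4 carbohydrate calls at 1 h against 0 h stayed called, with differences of 0.60 at Tnf, 0.66 at Tnfrsf1a, 0.60 at Tnfrsf14 and -0.58 at Ripk1 (adjusted p from 0.00085 to 0.00525 by limma). That fit cannot tell time from run. Its carbohydrate arrays of 0 h are all of the first run and those of 1 h all of the third. The falls between 1 h and 6 h lie mostly within the third run. In that run alone, Tnf fell by 0.48 and Tnfrsf1a by 0.55 with carbohydrate (adjusted p = 0.00373 and 0.00252 by limma), and Ltb by 0.47 and Tnfrsf1a by 0.78 with ethanol (adjusted p = 0.00233 and 1.84e-05 by limma). Ltb and Tnfrsf14 with carbohydrate were not called there, at -0.29 and -0.32 (adjusted p = 0.0862 and 0.0715 by limma). On the slide with carbohydrate arrays of 6 h and 1 h, the later array was lower by -0.49 at Tnf, -0.43 at Ltb, -0.83 at Tnfrsf1a and -0.55 at Tnfrsf14. On the slide with ethanol arrays of 6 h and 1 h, these differences were -0.04, -0.33, -0.81 and -0.24, and that of Ripk1 was -0.72.

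Of the 47 bins of 500 bp around the member starts, 6 were called higher and 1 lower at 1 h against 0 h with carbohydrate, where 8.82% of all bins were called. This share and the shares of all bins that follow count calls higher and lower together. At 6 h against 1 h, 11 were lower with carbohydrate (15.5% of all bins called) and 6 lower with ethanol (13.1%), and none was higher in either. At 6 h against 0 h with carbohydrate, 1 bin upstream of Ripk1 was lower (5.5% of all bins called). No member bin was called with ethanol at 1 h against 0 h (0.00812% of all bins) or at 6 h against 0 h (0%), nor between diets. The Tnfrsf1a calls at 6 h against 1 h ran along the tiled stretch, with 4 of its 5 bins lower with carbohydrate, while those of Tnfrsf14 lay at -3410, -410 and 90 bp.

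**Figure D3:**
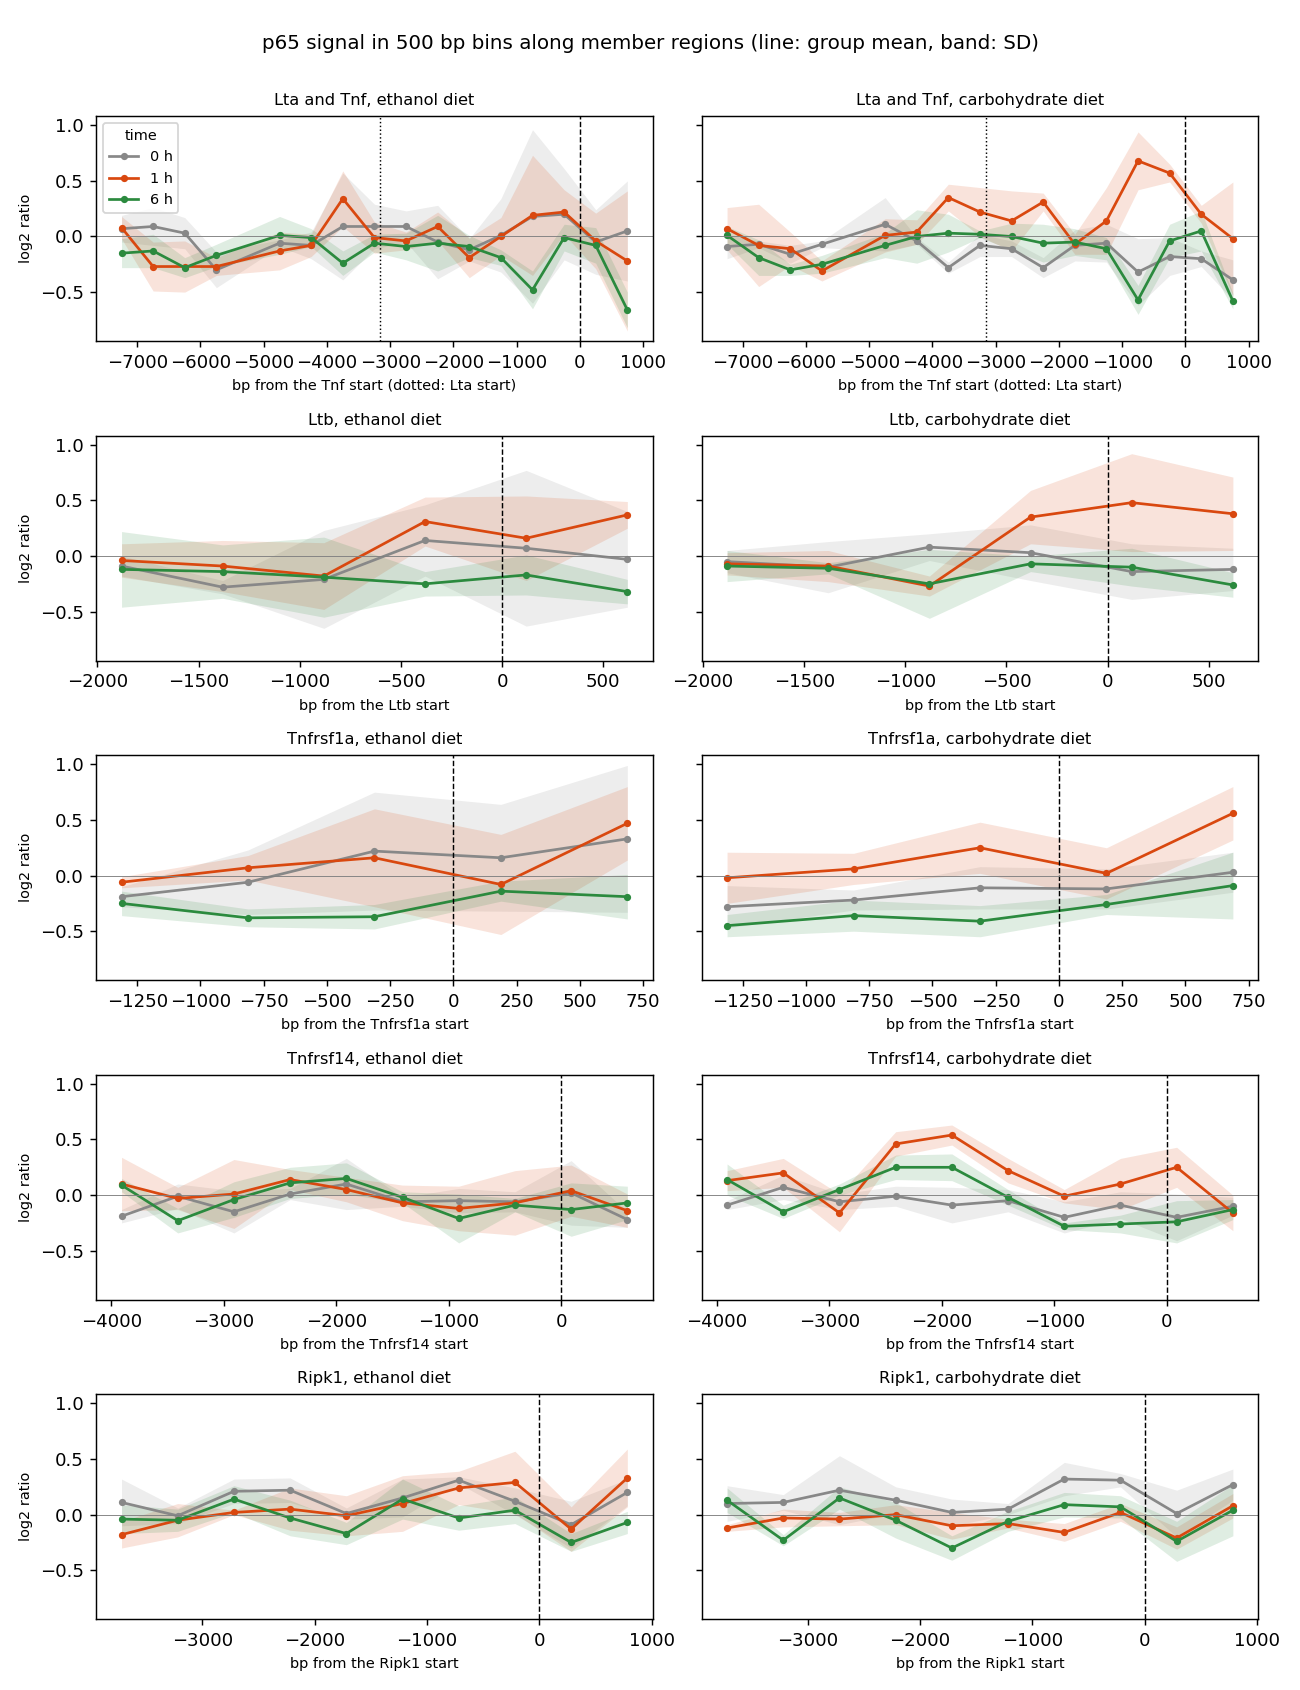
Group mean p65 signal (log2 ratio, array median at 0) in 500 bp bins against distance from the start of each member, ethanol on the left and carbohydrate on the right, with bands of 1 SD; the dotted line in the Lta and Tnf region is the Lta start. On the carbohydrate side the 1 h line stands above 0 h and 6 h just upstream of Tnf, reaching 0.68, and about 2 kb upstream of Tnfrsf14, reaching 0.54.

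The deposited peak lists, called by the authors on each array separately, named a member on 26 occasions counted as gene and array. In the authors' deposited table Tnf had a peak on 5 of the 20 arrays, Lta on 4, Ltb on 4, Tnfrsf1a on 6, Tnfrsf14 on 4 and Ripk1 on 3, where the median listed gene had a peak on 6 arrays. A peak can be listed for more than 1 gene, as those just upstream of Lta are for Tnf. At 1 h, Tnf was listed on 1 of 3 ethanol arrays and 3 of 3 carbohydrate arrays, Lta on 1 and 2, Ltb on 2 and 1, and Tnfrsf1a on 3 and 2. Tnfrsf14 was listed at 1 h on 0 of 3 ethanol arrays and 3 of 3 carbohydrate arrays, and otherwise only on 1 carbohydrate array of 6 h. At 0 h, Tnf, Lta, Ltb and Tnfrsf1a were listed on 1 array, ethanol 0 h replicate 2, and at 6 h on none of the 8 arrays. Ripk1 was listed on 1 array each of ethanol 0 h, carbohydrate 0 h and ethanol 1 h. The second run's 3 arrays held 3 of the 5 Tnf arrays, 3 of the 4 Lta arrays, 3 of the 4 Ltb arrays and 3 of the 6 Tnfrsf1a arrays. As background, the share of all listed genes with a peak on at least 2 arrays of a group was 19.7% at 0 h with ethanol and 20.6% with carbohydrate, 41.6% and 28.8% at 1 h, and 30.2% and 39.6% at 6 h.

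Peak positions differed by member. On all 5 arrays that list Tnf, a peak in the authors' deposited table is centred between -640 and -198 bp from its start, and on carbohydrate 1 h replicate 3 a further one lies at -855 bp. The Lta peaks are centred at -582 to -297 bp. All 4 Tnfrsf14 peaks lie at -2318 to -2159 bp, over the window that was highest there. On each of its 6 arrays Tnfrsf1a has a peak at 841 to 930 bp past the start, and on ethanol 1 h replicate 1 and ethanol 0 h replicate 2 also one at -27 bp. Ripk1 has 2 peaks on each of its 3 arrays, at -607 and 871 bp on ethanol 1 h replicate 3, at -4010 and -2398 bp on ethanol 0 h replicate 3 and at -2674 and -607 bp on carbohydrate 0 h replicate 3. The strongest member peaks by the authors' deposited score were at Tnfrsf1a, with 1.2 on carbohydrate 1 h replicate 1 and 1.16 on ethanol 0 h replicate 2. With the false discovery rate in the authors' deposited table held to at most 0.05, Tnf was still listed on 5 arrays, Lta on 0, Ltb on 2, Tnfrsf1a on 4, Tnfrsf14 on 1 and Ripk1 on 1.

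**Figure D4:**
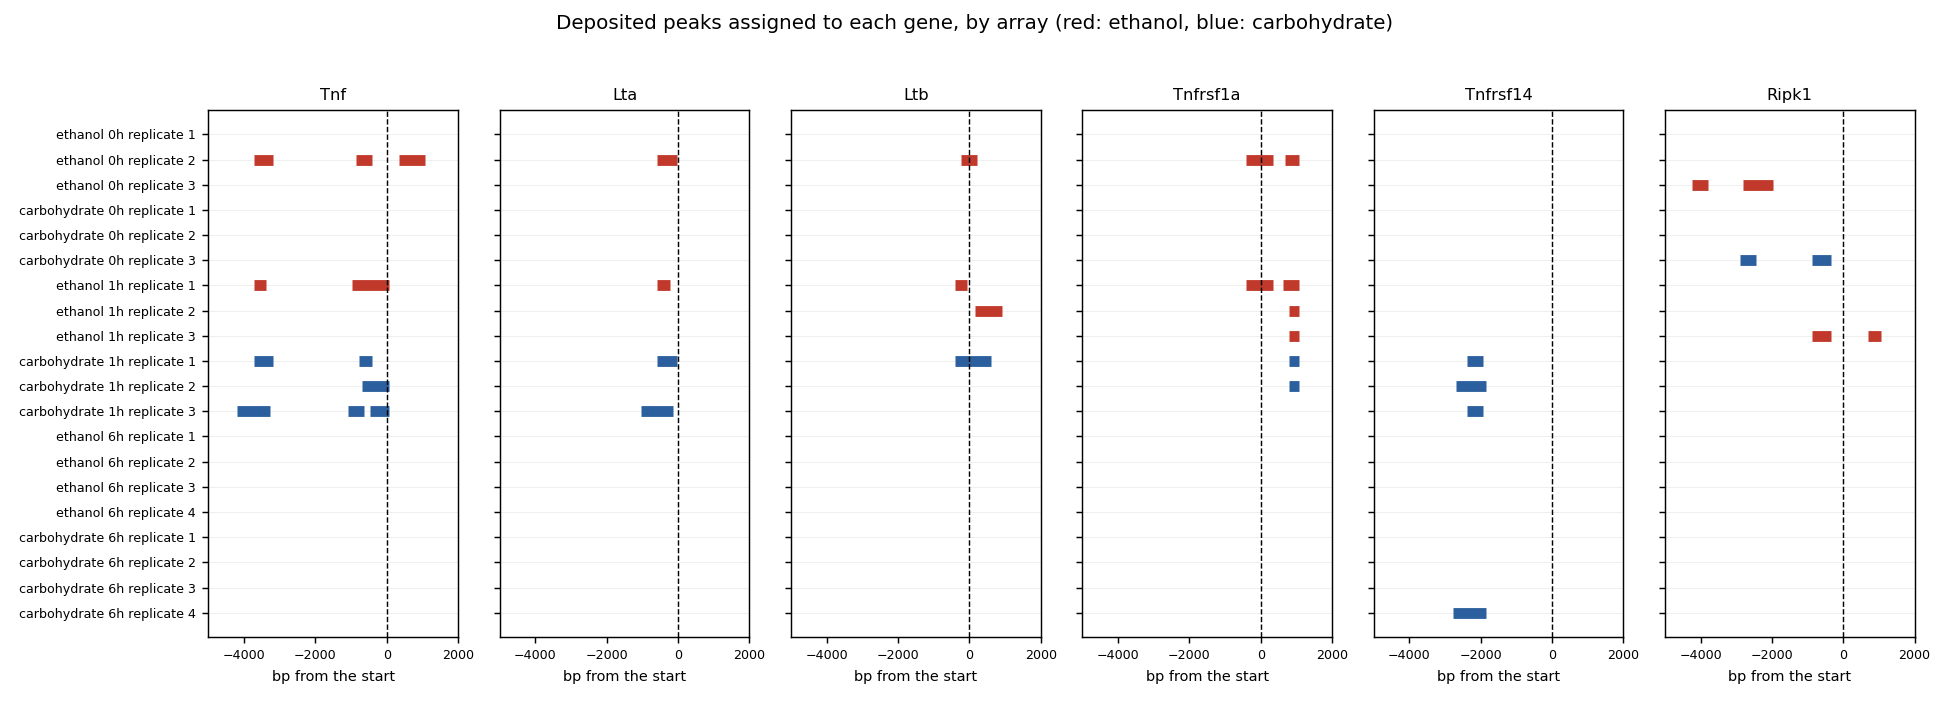
Deposited peaks assigned to each of the 6 genes, by array (rows, ethanol in red above carbohydrate in blue at each time) and by distance in bp from the gene's start, with each bar as long as the peak is wide. The rows of 6 h are empty but for 1 Tnfrsf14 peak, and ethanol 0 h replicate 2 carries the only peaks of 0 h at Tnf, Lta, Ltb and Tnfrsf1a.

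The members were also compared among themselves across the 20 arrays, which share slides, runs and animals, so correlations are given as descriptions. Ltb and Tnfrsf1a had a Pearson r of 0.94, Tnf and Tnfrsf1a 0.86, Tnf and Ltb 0.81, and Tnf and Tnfrsf14 0.73. Ripk1 had r = -0.34 with Tnfrsf14, -0.25 with Tnf, 0.15 with Ltb and 0.16 with Tnfrsf1a. The 3 named promoters with the highest r were Krt17 (0.94), Apol7b (0.94) and Rph3al (0.93) for Tnf, and Hpn (0.95), Cacng1 (0.95) and the region of Ptges3l1 and Sts (0.94) for Ltb. For Tnfrsf1a they were Tpra1 (0.98), the region of Alkbh2 and Ung (0.97) and Mars1 (0.96). For Tnfrsf14 they included Or10ak7 (0.83) and Arhgef18 (0.82), and for Ripk1 they were Ptch1 (0.87), Ahr (0.85) and Kat7 (0.84). The median r over all other named promoters was between 0.06 and 0.16 for the 5 members.

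Other promoters of the TNF system were read from a list by role, of which 52 of 78 genes had a promoter on the array, in 53 regions. With carbohydrate at 1 h against 0 h, 7 of the 53 were called higher and 1 lower, where 8.64% of all promoters were called higher and 2.46% lower, with a median difference of 0.19 beside 0.07 for all promoters. These groups share no array run. With array run as a term, 0 of the 14540 promoters were called higher and 5 lower. The 4 largest rises called were at Ripk3, the kinase of necroptosis (0.63), the death receptor Tnfrsf25 (0.63), Cflar, an inhibitor of caspase 8 (0.51), and Tnfrsf4, or OX40 (0.48), with adjusted p between 0.00968 and 0.0482 by limma. The other 3 promoters called higher include 2 receptors, and none of the 9 ligand promoters was called. The promoter of Xiap, an inhibitor of caspases, fell by 0.34 at 1 h (adjusted p = 0.0379 by limma). With carbohydrate at 6 h against 0 h, 9 were called higher and 1 lower, a split near that of all promoters (18.6% higher and 2.02% lower), led by the deubiquitinase gene Cyld (0.58) and the ligands Tnfsf11 (0.56) and Tnfsf13b (0.54), with Cflar at 0.56. Xiap was the one lower, at -0.47 (adjusted p = 0.00245 by limma). The carbohydrate arrays of 6 h and 0 h share no run either. With array run as a term, 18 of all promoters were called higher and 34 lower between them. At 6 h against 1 h, 4 were called higher and 8 lower with ethanol, near the 7.73% and 16.1% of all promoters. With carbohydrate 3 were higher and 4 lower, where 17.1% and 6.91% of all promoters were. Tab1, a partner of the kinase TAK1, fell in both diets, by 0.89 with ethanol and 0.79 with carbohydrate, and so did Tnfrsf25, by 0.54 and 0.64. The adaptor Traf2 (-0.75) was called lower with ethanol, where the ligands Cd40lg, the CD40 ligand (0.53), and Faslg, the Fas ligand (0.44), were called higher. Tnfrsf11b, the decoy receptor osteoprotegerin, was called higher with both diets (0.36 with ethanol and 0.50 with carbohydrate, adjusted p = 0.0347 and 0.005 by limma). No promoter of the list was called with ethanol at 1 h or 6 h against 0 h, or between diets, by limma.

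The cell type marker lists give promoter signals and do not measure cell numbers. With carbohydrate at 1 h against 0 h, 2 of 7 hepatocyte, 2 of 6 Kupffer cell and macrophage, 0 of 7 lymphocyte and 1 of 3 sinusoidal endothelial marker promoters were called higher and none lower, where 8.64% of all promoters were called higher. With array run as a term, 0 of the 14540 promoters were called higher in that comparison. At 6 h against 1 h with ethanol, 4 of the 7 hepatocyte marker promoters were called lower, with a median of -0.45 beside -0.08 for all promoters, and none of the other 16 was called, where 16.1% of all promoters were called lower and 7.73% higher. With carbohydrate at 6 h against 1 h, 1 hepatocyte marker promoter was higher and 2 were lower, 1 Kupffer cell and macrophage marker promoter was higher and 1 lower, and 2 lymphocyte marker promoters were higher. None of the 3 sinusoidal endothelial ones was called there, where 17.1% of all promoters were higher and 6.91% lower. Their part in the members' differences was not tested.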

How the data were processed

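Chromatin immunoprecipitation with anti-p65 antibody was hybridised to 2-colour promoter tiling arrays, 1 per sample, 20 in all. The authors deposited 1 table of log2 ratios for 713735 probes and, per array, a peak list with a score and a false discovery rate (a p-value type unit) for each peak. The log base, the direction of the ratio, the peak caller and the genome build are not given in the sources used here, per the file headers. The labels put immunoprecipitated DNA in Cy5 and input in Cy3, while the label protocol names IgG-precipitated DNA for Cy3, so the reference is unsettled. Between 99.9% and 100% of the deposited peaks on the arrays lay at negative table values, so ratios were multiplied by -1; this direction is likely but not stated. Each array's median, deposited between -0.0249 and 0.017, was set to 0.

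Probes separated by over 1000 bp began a new tiled region. The promoter signal was the mean of the 500 bp window (at least 4 probes) with the highest mean over the 20 arrays, and 14540 of 14723 regions had one; windows and 135502 fixed bins of 500 bp were fitted with limma 3.58.1 (R 4.3.3; 6 group means, eBayes with a trend, Benjamini-Hochberg adjustment over all features). The code was tested on simulated data. Members are the 6 genes by name; of a pathway list, genes called in a comparison, at most the 4 largest in each direction, and per member the 3 promoters most like it, are named. Some results under this rule are not reported here. The members and lists were chosen with earlier results of these data known. Nothing in the labels says that arrays of a group come from separate animals throughout; identifiers in the array names gave 16 animals, so p-values measure the spread between arrays. The number of arrays limits the precision. Runs and slides come from the same identifiers, which no label explains. Over all groups, same-numbered arrays did not deviate together (mean correlation 0.0666 over 46 pairs, range -0.224 to 0.504). At 1 h, equal numbers of the 2 diets share a slide and so are paired by slide, with correlations of 0.504, 0.191 and 0.28. Arrays of the 2 diets at 1 h on different slides had correlations from -0.427 to 0.29. Replicate 1 of both diets is of the second run, so slide and run cannot be told apart in these values. The fits with slide or replicate number as a term changed no call between the diets at 1 h. RefSeq promoters (GRCr8) were found for 5 of the 6 genes. Alternatives were array run, slide, animal or replicate number as terms, other scalings, the deposited direction, the mean of the tiled region, fits of the compared groups alone, and arrays left out; those that leave out array run 2 or keep run 3 alone were chosen after seeing the data.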

Additional observations from a re-analysis of the deposited data

Results flagged for a closer look

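In the ethanol group of 6 h, Tnfrsf1a on replicate 4 read 0.06 while the other 3 arrays read -0.24, -0.27 and -0.23. The gap to the nearest of the others was 0.871 of the whole range, above Dixon's 95% critical value for 4 arrays. Of the 10 promoter and group combinations with 4 arrays this was 1, and chance marks about 1 in 20. Ethanol 6 h replicate 4 lies on a slide with carbohydrate 6 h replicates 3 and 4, which read 0.12 and 0.28. Its part in the difference from 1 h was not tested beyond leaving each array out in turn.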

How the results depend on the processing

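Of 182 recomputations of the 10 called member differences, 148 kept direction and call, 25 kept direction and lost the call, and 9 turned. Most of the turns came with the deposited direction of the ratio, where every value carries the opposite sign. A signal that stayed the same would turn there, so such a turn does not mark a change. Over the fixed bins, which do not move, that direction only turns the sign of each value. Its 25 calls, as many as in the main fit, were therefore fixed in advance and do not test the direction. With the deposited direction of the ratio, which also moves the window, the member calls numbered 0 at 1 h against 0 h and at 6 h against 1 h with carbohydrate, and 0 at 6 h against 1 h with ethanol. There the carbohydrate differences at 1 h against 0 h were -0.64 at Tnf (Lta and Tnf region), -0.12 at Tnfrsf1a, -0.04 at Tnfrsf14 and 0.22 at Ripk1. Those at 6 h against 1 h were 0.37 at Tnfrsf1a with ethanol, and 0.91 at Tnf, 0.01 at Ltb and 0.36 at Tnfrsf1a with carbohydrate. With array run as a term, 0 members were called at carbohydrate 1 h against 0 h, where Tnfrsf1a was -0.22, 1 at ethanol 6 h against 0 h (Tnfrsf1a, -1.08) and 1 between diets at 1 h (Tnfrsf14). Of all 14540 promoters, that fit called 72 higher and 502 lower at ethanol 6 h against 0 h. Between diets at 1 h it called 41 higher and 6 lower. At carbohydrate 6 h against 0 h, 1 member was called, Ripk1, with scaled arrays, with quantile normalization and over whole tiled regions. Of all 14540 promoters, 2080 were called higher and 805 lower there with scaled arrays. The counts were 2806 and 648 with quantile normalization, and 609 and 805 over whole tiled regions. Shares over all promoters in the other alternatives named below are not given here. In array run 3 alone, 2 members were called at carbohydrate 6 h against 1 h and 1 in the difference between diets at 6 h against 1 h (Ripk1). Without array run 2, where time and run coincide at 1 h against 0 h, 1 was called at ethanol 1 h against 0 h (Tnfrsf1a) and 1 in that difference (Ripk1). With a replicate block, 1 was called at ethanol 6 h against 0 h (Ltb, -0.54, adjusted p = 0.0492 by limma), and Ltb passed at carbohydrate 1 h against 0 h (adjusted p = 0.0445 by limma). Only between the diets at 1 h does every replicate number pair arrays of 1 slide. There the block called 0 members (Tnfrsf14, adjusted p = 0.139 by limma). Elsewhere single equal-numbered arrays share a slide, as replicate 4 of both diets at 6 h does. Leaving out 1 array at a time gave 2 to 3 called members at carbohydrate 1 h against 0 h, 1 to 4 at carbohydrate 6 h against 1 h, 0 to 1 at ethanol 1 h against 0 h, 0 to 2 at ethanol 6 h against 0 h, 1 to 3 at ethanol 6 h against 1 h and 0 to 1 between diets at 1 h. Member bins called over the 9 comparisons numbered 25, and 15 to 40 with 1 array left out, the highest without ethanol 0 h replicate 2 and the lowest without carbohydrate 1 h replicate 1. The gene and array pairs with a peak numbered 26, and 13 with a false discovery rate of at most 0.05. Causes were not tested. The number of arrays limits the precision, and the direction of the ratio rests on the sign at the deposited peaks.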
